A study of Mus musculus with 8 samples.

Results

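The miR-21a hairpin of the mouse gives 2 mature miRNAs, mmu-miR-21a-5p and mmu-miR-21a-3p (miR-21a-5p and miR-21a-3p from here on), and both were followed here through small RNA libraries of mouse embryonic stem (ES) cells. They were taken by name from the 1915 mature miRNAs listed in the count table, 2 rows in all, and both passed the filter on low counts that left 475 miRNAs for testing. The study sequenced 8 libraries in 4 groups of 2, all from ES cells of the 129/Ola strain background grown in 15% serum with LIF at 100 U/mL. The wild type group holds libraries A and B of E14, a line from the blastocyst. The Ago2 knockout group holds 1 library from each of the lines Ago2KO1 and Ago2KO2. The remaining groups are libraries A and B of Ago2KO1-AGO1, a line made from knockout line 1 that carries an inducible AGO1 transgene and was kept in puromycin at 2 µg/mL. It was sequenced without doxycycline (the uninduced group) and with doxycycline at 1 µg/mL, which switches the transgene on (the induced group). All 4 of its libraries therefore also lack Ago2, and their labels name a single line. No library had doxycycline without the transgene, so the drug and AGO1 cannot be told apart. Comparisons of this line with wild type or the knockout lines also carry its puromycin and its making, which cannot be told apart either. The sources used here give neither the promoter of the transgene nor the length of the doxycycline treatment. Whether A and B were separate cultures is not stated in the labels, so p-values measure the spread between these libraries, which may be technical. With 1 library of each knockout line, a difference between lines and one between libraries cannot be told apart.

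A miRNA hairpin is cut by Drosha and then by Dicer into a short duplex of its 5p and 3p arms. One strand is loaded into an Argonaute protein and kept there, where its seed (bases 2 to 8) pairs with target mRNAs, while the other strand is mostly degraded. AGO1 and AGO2 both hold miRNAs, and AGO2 is the one known for strong slicing of its targets. miR-21 is known as a miRNA of fibroblasts, immune cells and many tumours, is switched on by STAT3 and AP-1, and represses Pdcd4. Its 5p arm is the usual guide strand and its 3p arm the usual passenger strand. LIF, which keeps mouse ES cells pluripotent, acts through STAT3.

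The sequences of both arms are shown because every result below compares them, and those of 2 relatives because reads of a near copy could be counted with an arm. They are the RefSeq mature sequences (GRCm38.p6), 5′ to 3′, with the seed in capitals.
miR-21a-5p: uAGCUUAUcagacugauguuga
miR-21a-3p: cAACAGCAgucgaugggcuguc
miR-21b: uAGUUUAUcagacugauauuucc
miR-21c: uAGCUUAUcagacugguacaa

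Both miR-21a arms are 22 bases long. They differ in their first base, which is U in miR-21a-5p and C in miR-21a-3p, and in base composition, with 36.4% and 59.1% G or C. Of the 1621 listed names found in the RefSeq table, 40.3% begin with U and 21.2% with C. The seed of miR-21a-5p is shared with miR-21c alone among the names found in the table, and that of miR-21a-3p with 0 others. The seed of miR-21b differs from that of miR-21a-5p by C4U, with positions counted from 1 at the 5′ end and the base of miR-21a-5p first. Both relatives are 5 single-base edits from miR-21a-5p over their whole length. Among all RefSeq mature miRNAs, listed here or not, those nearest to miR-21a-5p are miR-3965 and miR-3967, 4 edits away. The nearest to miR-21a-3p, miR-8090, is 7 edits away. Counts of these nearest miRNAs are not given here. Over the 8 libraries together miR-21a-5p had 6153 counts and miR-21a-3p had 1382, against 1 count for miR-21b and 0 for miR-21c.

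The hairpin lies on the minus strand of chromosome 11, from 86584067 to 86584158 (GRCm38.p6). miR-21a-5p covers 86584120 to 86584141 and miR-21a-3p covers 86584082 to 86584103, with 16 bases of loop between them. The hairpin sits inside Vmp1 (86583865 to 86683836, minus strand), a gene for a membrane protein of autophagy. Of the 8 Vmp1 transcripts annotated, 1 spans the hairpin, in its last exon (86583865 to 86585451) and in its UTR. There were 0 other annotated miRNA genes within 50 kb, so no clustered miRNA can be compared with it. The mRNA of Vmp1 was not measured in these libraries.

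Totals of counts ran from 163467 in knockout line 2, the shallowest library, to 1326638 in induced A. Levels are in CPM, each count divided by its library's total (times a TMM factor) and put on a common scale, so they are shares of the miRNA counted and not amounts per cell. In such bulk libraries fewer cells of a type and less RNA per cell cannot be told apart. A count of 0 allows up to 3 counts, or 2.57 to 15.1 CPM by library, and both arms were far above that in all 8. The mRNAs of Ago2 and AGO1 were not measured, so neither the knockout nor the induction was checked here. As a check on the cell type, miRNAs of the pluripotency clusters named after miR-290 and miR-302 made up 24.3 to 31.8% of each library, with counts for 27 of 28 of them and miR-367-5p at 0.

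miR-21a-5p was at a near constant level except with doxycycline. Wild type A had 1070 CPM and wild type B 1230, knockout line 1 had 1220 and line 2 had 1177, and uninduced A and B had 1334 and 1204. In induced A and B it stood at 860 and 787 CPM, below all 6 other libraries. Among all miRNAs it ranked between 57 and 87 by count. In order of group means the uninduced line was at 1269 ± 92.1 CPM (SD, n = 2), the knockout at 1199 ± 30.3, wild type at 1150 ± 113 and the induced line at 823 ± 51.2. The values of wild type overlapped those of both other high groups.

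miR-21a-3p was lower and moved more. It had 168 CPM in wild type A and 157 in wild type B, and 156 and 166 in induced A and B, so these 4 libraries lay together. The uninduced libraries A and B had 441 and 417 CPM, above those 4. Knockout line 1 had 220 CPM, closer to wild type, and knockout line 2 had 865, the highest of all. These 2 libraries differed 3.94-fold in miR-21a-3p and 1.04-fold in miR-21a-5p. Group means were 542 ± 457 CPM (SD, n = 2) in the knockout, 429 ± 17.0 in the uninduced line, 162 ± 8.47 in wild type and 161 ± 7.60 in the induced line. The first and second in this order overlap, as do the third and the last.

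**Figure D1:**
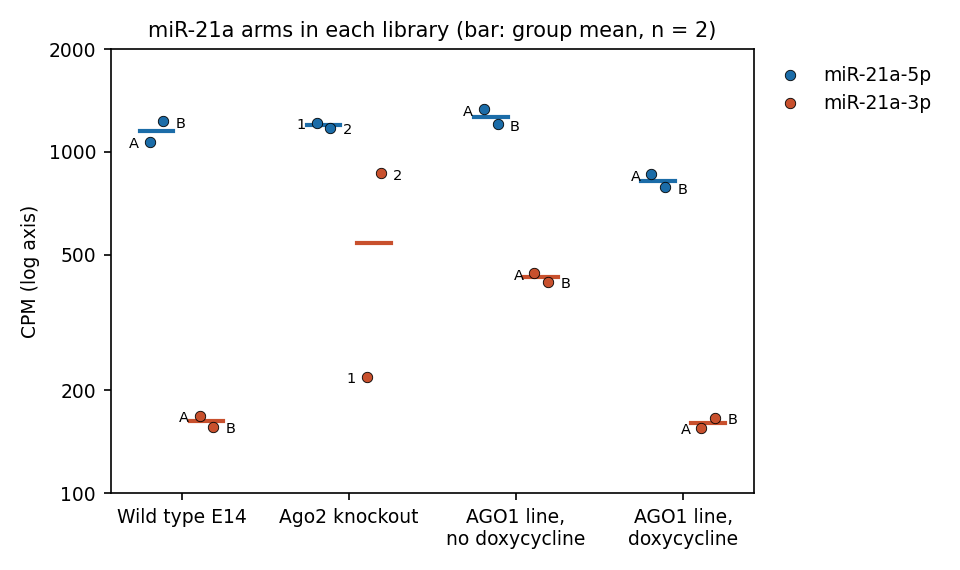
Level in CPM (log axis) of miR-21a-5p and miR-21a-3p in each of the 8 libraries, by group, with group means as bars. The 5p arm stays between 787 and 1334 CPM, and the 3p arm runs from 156 CPM in induced A to 865 CPM in knockout line 2.

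The share of the 3p arm in all miR-21a counts needs no scaling between libraries. It was 13.6% in wild type A (142 of 1044 counts, 95% Wilson interval 11.7 to 15.8%) and 11.3% in wild type B (174 of 1541, 9.81 to 13.0%). In knockout line 1 it was 15.3% (88 of 577, 12.5 to 18.4%) and in knockout line 2 it was 42.4% (172 of 406, 37.7 to 47.2%). The interval of line 1 overlapped those of both wild type libraries, and that of line 2 lay above all the others. The uninduced libraries had 24.8% (331 of 1333, 22.6 to 27.2%) and 25.7% (126 of 490, 22.04 to 29.8%), both above wild type. The induced libraries had 15.3% (182 of 1187, 13.4 to 17.5%) and 17.5% (167 of 957, 15.2 to 19.98%), below the uninduced ones and, in their point values, above wild type. Counts of 5p to 1 count of 3p therefore ran from 7.86 in wild type B down to 1.36 in knockout line 2, and the 5p arm was the larger in all 8 libraries. These intervals hold counting error alone, because without molecular identifiers several reads can come from 1 molecule.

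**Figure D2:**
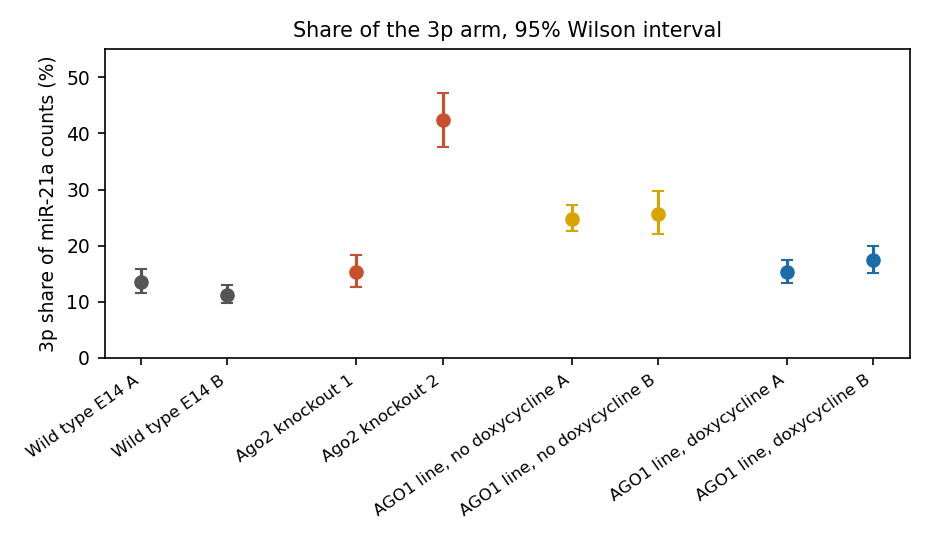
Share of miR-21a counts that came from the 3p arm, in percent, in each library, with 95% Wilson intervals as bars. Wild type lies at 11.3 and 13.6%, uninduced at 24.8 and 25.7%, induced at 15.3 and 17.5%, and the knockout lines stand apart at 15.3 and 42.4%.

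Knockout against wild type asks how the loss of Ago2 goes with each arm. miR-21a-3p was 3.26-fold higher in the knockout (log2 change 1.71 ± 0.48 (SE), edgeR quasi-likelihood test, Benjamini-Hochberg adjusted p = 0.0130), and its groups did not overlap. miR-21a-5p differed by 0.06 ± 0.18 (adjusted p = 0.789) with overlapping groups. Of the 475 miRNAs tested, 57.7% were called in this comparison at an adjusted p under 0.05, 25.5% of all as higher, and the groups of 77.3% did not overlap, so a call is common here. The median log2 change over all miRNAs was -0.12, and 160 of the 475 moved further than miR-21a-3p. Of the calls 44.2% were higher, or 58.3% without TMM factors, which puts the median at 0.16 and the changes of miR-21a-3p and miR-21a-5p at 2.05 (adjusted p = 0.00997) and 0.36 (adjusted p = 0.101). The ratio of 3p to 5p, tested within the hairpin, was 2.62-fold higher in the knockout (log2 change 1.39 ± 0.39, adjusted p = 0.00791). Knockout line 1 was close to wild type A, at a log2 ratio of -2.47 against -2.67, and knockout line 2 was at -0.44. Of 191 hairpins tested for that ratio 29.3% were called, 16.2% toward 3p, and 20.9% toward the minor arm of the hairpin. The minor arm is the one with fewer counts summed over the 8 libraries, so deep libraries weigh most. The call on the ratio was not made by DESeq2 (adjusted p = 0.0983).

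The size of this difference rests on knockout line 2. Without that library the log2 change of miR-21a-3p was 0.47 (edgeR adjusted p = 0.173) and that of the ratio 0.35 (adjusted p = 0.457), with knockout line 1 alone assumed to vary like the other groups. The call on miR-21a-3p was also lost without wild type A (adjusted p = 0.0528) or B (0.0649), and that on the ratio without uninduced A (0.0510) or B (0.0530), while the changes stayed between 1.39 and 1.95 in size. Without knockout line 1, miR-21a-3p and the ratio changed by 2.42 and 2.38.

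**Figure D3:**
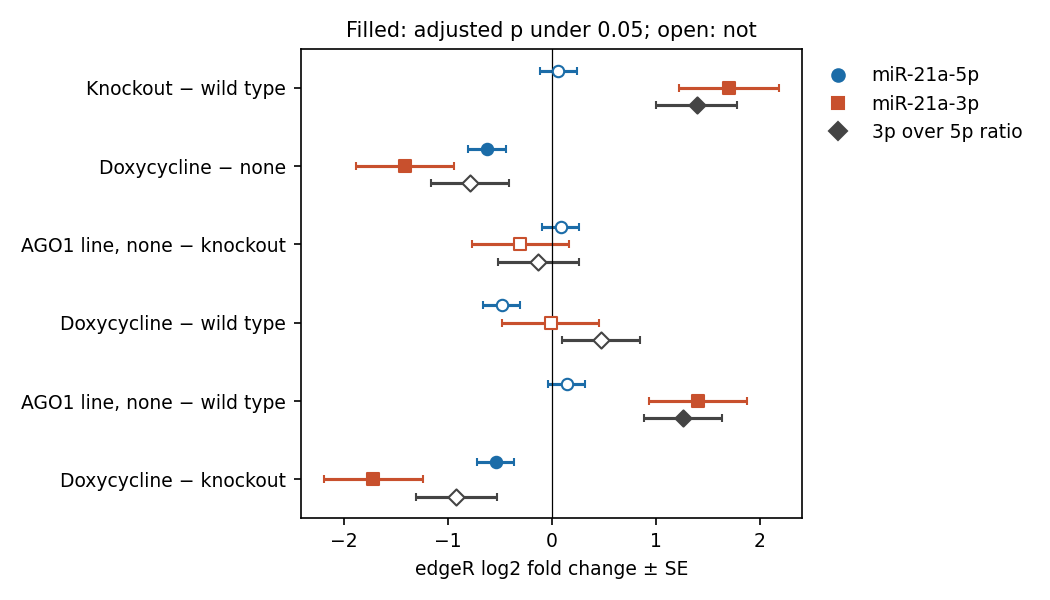
Log2 change of miR-21a-5p, miR-21a-3p and their 3p to 5p ratio in the 6 comparisons, with bars of 1 SE; filled markers have an adjusted p under 0.05. The 3p arm is called in the comparisons of the knockout and the uninduced line with wild type (1.71 and 1.40) and of the induced line with the uninduced line and the knockout (-1.41 and -1.72).

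The knockout lines differed in much else besides. Over 385 miRNAs their median difference in size was 0.504 on the log2 scale, against 0.296 between the wild type libraries, 0.272 between the uninduced and 0.204 between the induced ones. miR-21a-3p differed by 1.97 between the lines, and 28 of 385 miRNAs (7.27%) differed more, while miR-21a-5p differed by -0.05. Line 2 did not show higher minor arms throughout. Of 92 hairpins with at least 50 counts in each knockout library, the share of the minor arm was higher in line 2 for 53 and lower for 39, with a median difference of 0.151 percentage points. For miR-21a that difference was 27.1 points, and 1 hairpin had a larger one, miR-292b, whose 3p share was 41.1% in line 1 and 70.3% in line 2. Next came miR-135b, at 16.4 and 37.1%, and the 5p arm of miR-19a, at 14.4 and 31.4%. The depth of line 2 is the lowest of all, and its part in the difference was not tested.

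**Figure D4:**
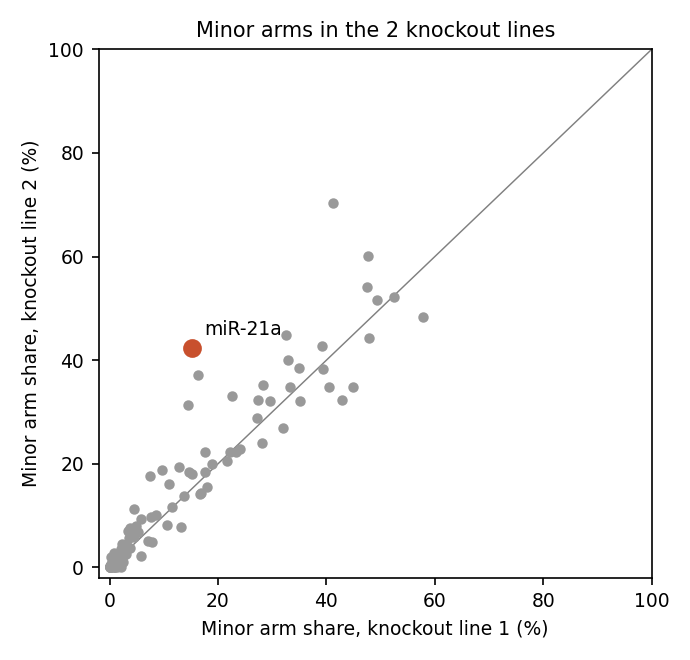
Share of the minor arm in knockout line 1 (x axis, percent) against knockout line 2 (y axis, percent) for 92 hairpins, with the line of equal shares. miR-21a lies at 15.3 and 42.4%, well above the line, while 39 hairpins lie below it.

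The uninduced AGO1 line, which comes from knockout line 1, gave a second comparison of Ago2-null cells with wild type, sharing the wild type libraries with the first. miR-21a-3p was 2.64-fold higher in it (log2 change 1.40 ± 0.47 (SE), edgeR adjusted p = 0.0252), and its groups did not overlap. miR-21a-5p differed by 0.14 ± 0.18 (adjusted p = 0.507), with overlapping groups. The 3p to 5p ratio was 2.39-fold higher (1.26 ± 0.38, adjusted p = 0.0136), but not by DESeq2 (adjusted p = 0.132). In this comparison 59.2% of miRNAs were called, 25.9% as higher, and 35.1% of hairpins in the ratio, and the groups of 82.1% of miRNAs did not overlap. Without knockout line 2, whose spread enters the shared fit, the changes of miR-21a-3p and the ratio were 1.42 (adjusted p = 6.94e-09) and 1.26 (adjusted p = 1.07e-05). The call on miR-21a-3p was lost without wild type A (adjusted p = 0.0835), wild type B (0.108) or uninduced A (0.0835), and that on the ratio without uninduced A (0.162) or B (0.128), with changes of 1.22 to 1.59.

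Against the knockout lines together, the uninduced line showed no called difference in either arm. miR-21a-5p changed by 0.08 ± 0.18 (edgeR adjusted p = 0.881), miR-21a-3p by -0.31 ± 0.47 (adjusted p = 0.796) and the ratio by -0.13 ± 0.39 (adjusted p = 0.983), and the groups overlapped in all 3. edgeR called 0 of 475 miRNAs here, with 72 at an unadjusted p under 0.05, and DESeq2 called 9; the arm ratio was called in 0.524% of hairpins. These values average 2 unlike lines. Against its parent, knockout line 1 alone, the uninduced line was higher in miR-21a-3p by 0.94 on the log2 scale (adjusted p = 0.0347, with the lone parent library assumed to vary like the other groups). Against line 2 alone it was lower by a change of -1.01 (adjusted p = 0.00603). The libraries of the uninduced line thus lay between the 2 knockout lines.

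Doxycycline, which turns on AGO1 in cells without Ago2, went with lower levels of both arms. miR-21a-5p fell by 0.62 on the log2 scale (SE 0.18, 1.54-fold, edgeR adjusted p = 0.0262) and miR-21a-3p fell by 1.41 (SE 0.47, 2.66-fold, adjusted p = 0.0462), and neither arm's groups overlapped. Both arms together went from 1697 ± 109 CPM (SD, n = 2) to 984 ± 43.6 CPM. Here 28.8% of miRNAs were called, 7.79% as lower, and the median change over all was 0.03. Of the calls 73.0% were higher, or 56.5% without TMM factors, where the median was -0.17 and the changes of the arms were -0.83 and -1.62 (adjusted p = 0.00812 and 0.0415). The groups of 72.4% did not overlap. The 3p to 5p ratio changed by -0.79 ± 0.37 (adjusted p = 0.271), so an unequal fall of the arms was not called, and 5.76% of hairpins were.

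The calls with doxycycline were near the threshold. That on miR-21a-5p was lost without uninduced A (adjusted p = 0.390), uninduced B (0.0656), induced A (0.187) or induced B (0.221), and that on miR-21a-3p without each library other than the knockout lines (0.0566 to 0.166). The changes stayed negative throughout, from -0.85 to -0.42 and from -1.61 to -1.24. Without knockout line 2, which is not in this comparison but enters the spread, miR-21a-3p changed by -1.40 (adjusted p = 2.01e-08) and the ratio by -0.79 (adjusted p = 0.0218).

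Induced cells against wild type compares cells with AGO1 added and Ago2 absent with cells that have Ago2. The induced cells differ as well in doxycycline, puromycin and the making of the line. miR-21a-3p had means of 161 and 162 CPM, with overlapping groups and a log2 change of -0.01 ± 0.47 (SE, edgeR adjusted p = 0.989), an error that leaves room for changes in either direction. The change of miR-21a-5p was -0.48 ± 0.18 (1.40-fold, adjusted p = 0.0546), above the threshold, although both induced libraries lay below both wild type libraries. The groups of 76% of miRNAs did not overlap in this comparison and 38.9% were called. The ratio changed by 0.47 ± 0.37 (adjusted p = 0.381), while 35.6% of hairpins were called. Against the knockout lines, induced cells had lower miR-21a-5p (-0.54 ± 0.18, 1.46-fold, adjusted p = 0.0442) and lower miR-21a-3p (-1.72 ± 0.48, 3.29-fold, adjusted p = 0.0224), where 29.9% of miRNAs were called and 10.7% as lower. Of these calls 64.1% were higher, or 38.1% without TMM factors, where the median was -0.37 in place of 0.03 and the changes of miR-21a-5p and miR-21a-3p were -0.93 (adjusted p = 0.00390) and -2.14 (adjusted p = 0.0121). The ratio changed by -0.92 ± 0.39 (adjusted p = 0.172) with overlapping groups, and 8.38% of hairpins were called. Without knockout line 2 the changes of the arms were -0.58 (adjusted p = 0.0501) and -0.46 (adjusted p = 0.235). The call on miR-21a-5p was lost without any 1 of the 8 libraries (adjusted p 0.0501 to 0.235), and that on miR-21a-3p also without induced A (0.0730) or B (0.0915).

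The arms of miR-21a did not run closely together over the 8 libraries, with a Pearson r of 0.522 on log2 CPM. Among 384 tested miRNAs with a mean of at least 20 CPM, miR-21a-3p ranked 41 by likeness to miR-21a-5p. The 5 miRNAs most like miR-21a-3p were miR-96-3p (r = 0.927), miR-19a-5p (0.924), miR-15a-3p (0.914), miR-3470b (0.901) and miR-466f (0.895), and the first 3 are the minor arms of their hairpins. miR-96-3p was at 52.2 and 43.2 CPM in wild type, 130 and 267 in lines 1 and 2 of the knockout, 178 and 202 in uninduced and 71.0 and 63.8 in the induced libraries. miR-19a-5p had 23.7 and 18.9, then 77.3 and 166, then 103 and 109, then 29.1 and 20.9 CPM in the same order. In both, knockout line 2 was the highest library and line 1 lay between wild type and the uninduced line, as for miR-21a-3p. These correlations were picked as the highest of many, all share the 8 libraries and their depths, and are given as a description.

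**Figure D5:**
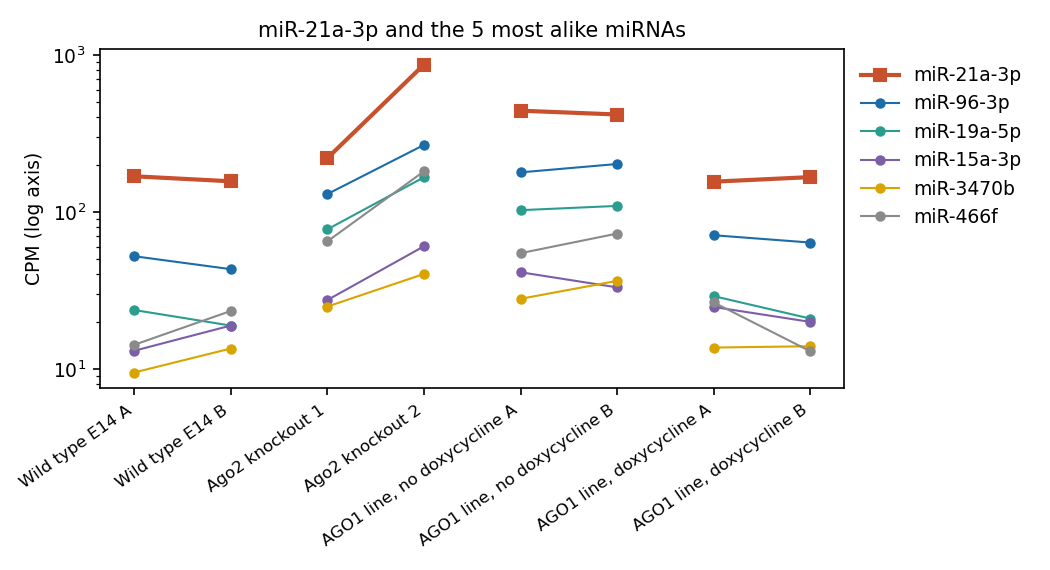
Level in CPM (log axis) of miR-21a-3p and of the 5 miRNAs most like it over the 8 libraries, with a line joining the 2 libraries of a group. For miR-21a-3p, miR-96-3p and miR-19a-5p, knockout line 2 is the highest library, at 865, 267 and 166 CPM.

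The 5 miRNAs most like miR-21a-5p were miR-26a-2-3p (r = 0.846), miR-3473e (0.789), miR-101a-3p (0.785), miR-19b-3p (0.782) and miR-3473b (0.760). miR-101a-3p, the major arm of its hairpin and known to target Ezh2, was at 795 and 662 CPM in wild type, 876 and 719 in lines 1 and 2 of the knockout, 678 and 522 in uninduced and 403 and 378 in the induced libraries. miR-19b-3p, of the miR-17-92 cluster, had 2277 and 1864, then 2450 and 2088, then 2404 and 1898, then 1811 and 1316 CPM. Like miR-21a-5p, both were lowest in the 2 induced libraries.

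Other hairpins changed their arm ratio more than miR-21a did in the knockout. Over all 191 hairpins 29.3% were called, 16.2% toward 3p. Of 73 hairpins with at least 100 counts on both arms together in every library, 19 were called toward 3p. The 5 largest changes in that direction were in miR-181c, miR-93, miR-20b, miR-150 and miR-182. Others went toward 5p by as much, such as miR-25 (log2 change of the ratio -3.39) and miR-27b (-3.01). The 3p share of miR-181c was 33.4 and 31.2% in wild type against 85.3 and 81.6% in knockout lines 1 and 2 (log2 change of the ratio 3.42 ± 0.25 (SE), edgeR adjusted p = 4.37e-10). Its knockout lines were alike, unlike those of miR-21a. The 3p share of miR-93 was 0.177 and 0.134% in wild type against 1.09 and 1.81% in knockout lines 1 and 2 (3.12 ± 0.47, adjusted p = 2.23e-05).

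miRNAs of genes that are known targets of STAT3, AP-1, NF-kB, CREB or SMAD signalling were looked at beside miR-21a, which is 1 of them. Of 11 tested, 2 were higher in the knockout than in wild type, miR-21a-3p and miR-146a-5p, and 1 was lower, miR-31-5p, against 25.5% and 32.2% of all miRNAs. The list's median log2 change was -0.51, and that of all miRNAs -0.12. miR-146a-5p, which damps NF-kB signalling, had 4.78 ± 3.41 CPM (SD, n = 2) in wild type and 31.3 ± 1.59 in the knockout (log2 change 2.60 ± 0.57 (SE), edgeR adjusted p = 0.00385). Its 2.37 CPM in wild type A lay below the 3.56 CPM that a count of 0 allows there, so the size of this change is unsure. miR-31-5p had 534 ± 13.5 and 265 ± 26.8 CPM (-1.001 ± 0.23, adjusted p = 0.00513). With doxycycline the 2 called members were the arms of miR-21a, both lower, against 7.79% of all miRNAs lower and 21.1% higher. The list's median was -0.28, and that of all miRNAs 0.03. miR-146a-5p had 67.3 ± 2.98 CPM without and 36.3 ± 7.82 with doxycycline, a difference that was not called (adjusted p = 0.102).

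Fibroblast and mesenchymal miRNAs, another group that holds miR-21a, moved both ways. Of 11 tested in the knockout against wild type, miR-21a-3p and miR-22-5p were higher and miR-143-3p and miR-31-5p were lower, against 25.5% higher and 32.2% lower of all miRNAs. The list's median log2 change was 0.33, and that of all miRNAs -0.12. miR-143-3p, a miRNA of smooth muscle and fibroblasts, had 3415 ± 387 CPM (SD, n = 2) in wild type, 349 ± 3.29 in the knockout, 271 ± 27.9 in the uninduced and 1861 ± 114 in the induced line. With doxycycline it rose (log2 change 2.78 ± 0.20 (SE), edgeR adjusted p = 4.05e-06) where both arms of miR-21a fell, against 21.1% of all miRNAs higher and 7.79% lower, and the list's median was -0.01 against 0.03 over all. Both lists were chosen with earlier results in view and contain miR-21a, so they are not independent evidence on it.

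Hairpins with a miRNA known to target Oct4, Nanog or Sox2 were listed with both arms, and 12 of these arms were tested. A called arm need not be the one known to target them. By edgeR 5 were higher in the knockout and 0 lower, against 25.5% and 32.2% of all miRNAs. DESeq2 called 3 higher and 0 lower, and 0 were lower at an unadjusted edgeR p under 0.05. The list's median log2 change was 0.98, and that of all miRNAs -0.12. The 5 were miR-134-3p, miR-203-3p, miR-296-3p and both arms of miR-34a. miR-134-3p was near the floor in wild type, with 4 counts in A and 5 in B. miR-34a-3p was low as well, at 8.31 CPM in wild type A and 5.40 in B. Its 15.1 CPM in knockout line 2 is no more than a count of 0 allows there. The sizes of both changes are therefore unsure. Not called were miR-134-5p (log2 change -0.04), miR-296-5p (-0.45) and miR-9-5p (-0.31). Nor were miR-470-5p (0.59), miR-200c-3p (0.37), miR-145a-3p (1.06) and miR-145a-5p (0.90). The change of miR-470-5p averages knockout lines 1 and 2 at 235 and 10.1 CPM, above and below the 96.1 and 81.9 of wild type. miR-34a-5p, a p53 target, had 148 ± 12.2 CPM (SD, n = 2) in wild type, 311 ± 19.5 in the knockout, 383 ± 66.8 in the uninduced and 174 ± 2.69 in the induced line. With doxycycline both arms of miR-34a fell, against 7.79% of all miRNAs lower. The log2 changes were -1.13 for miR-34a-5p and -1.96 for miR-34a-3p (edgeR adjusted p = 0.00582 and 0.0225). The latter rests on few reads, with 6 counts in induced A and 7 in induced B. The list's median was -0.04 against 0.03 over all miRNAs. The miR-290 cluster, the most abundant miRNAs of ES cells, had 3 of 18 tested higher and 8 lower in the knockout, against 25.5% and 32.2% of all miRNAs, with a median of -0.35 against -0.12. With doxycycline 6 were higher, against 21.1% of all miRNAs, with a median of 0.34 against 0.03.

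Markers of other cell types moved with the groups. Summed over 5 fibroblast and mesenchymal markers, of which 4 had counts and miR-214-3p was at 0, the level was 3302 to 3812 CPM in wild type, 543 to 574 in the knockout, 559 to 599 in the uninduced and 2013 to 2214 in the induced line. Over 5 blood markers, of which miR-223-3p and miR-451a were at 0 in all 8 libraries, the range was 1834 to 1881 CPM, then 5715 to 6389, then 6210 to 6716, then 3710 to 3871. The 2 neural markers summed to 458 to 540, then 382 to 387, then 382 to 539, then 323 to 337 CPM. The fibroblast sum was low in the knockout and uninduced libraries, but it is nearly all miR-143-3p (3142 of 3302 CPM in wild type A). The other 3 fibroblast markers with counts had log2 changes above 0 in the knockout against wild type, none of them called by edgeR: miR-145a-5p at 0.90 (adjusted p = 0.0709), miR-10b-5p at 0.57 (0.150) and miR-199a-3p at 0.33 (0.560). The blood sum was high in the knockout and uninduced libraries, where miR-21a-3p was also above both wild type libraries. In the induced line the blood sum was above wild type too, but miR-21a-3p was not, with means of 161 CPM there and 162 in wild type. Between knockout lines 1 and 2 the blood markers went different ways, with miR-142a-5p at 1689 and 3250 CPM, the same direction as miR-21a-3p, and miR-150-5p at 3685 and 2596 CPM. Their part in the levels of miR-21a was not tested.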

How the data were processed

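Small RNA from total RNA was sequenced in 8 libraries, made with an Illumina TruSeq small RNA kit from 1 µg of total RNA per the labels' protocols. The authors deposited raw counts of reads for each mature miRNA, as whole numbers. Bowtie and mm10 are named in the submitters' processing notes; the read trimming, the mismatch setting, the treatment of multiply matching reads and the miRNA release were not given in the sources used here. In the table, 2 header lines give names that differ for the first wild type library; the first line was used.

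Tests used R 4.3.3 and edgeR 4.0.16: the quasi-likelihood F test (2-sided), TMM factors (0.881 to 1.22) from the 475 miRNAs kept by filterByExpr, 1 fit of 4 groups (4 residual degrees of freedom), with p-values adjusted by Benjamini-Hochberg over all 475 in each of 6 comparisons. The SE is the log2 change divided by the square root of F. Called means an adjusted p under 0.05. The 475 hold 99.9% of counts. CPM was computed here from totals times TMM factors. For the arm ratio, both arms of each library were columns, the library entered as a term, and the effect was the interaction of arm and group, in 191 hairpins, adjusted over these. Likeness used log2 CPM with a prior count of 2. Ligation to adapters differs between sequences, so the level of one arm against another is less sure than the change of an arm between libraries. Replicates of each group differed by more than sampling noise. Scripts were tested on simulated data.

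The members, lists, markers and tests were chosen with earlier results of these data known. Named miRNAs follow a rule: both arms, miR-21b, miR-21c and sharers of a seed, neighbouring miRNA genes, the 5 most like each arm, the 5 hairpins with the largest ratio changes toward 3p, and called members of the 4 lists. Each list takes both arms of its hairpins. For the pluripotency-targeting list the members not called are named too. miR-292b, miR-135b, miR-19a, miR-22-3p, miR-25 and miR-27b were named after their values were seen, as were miR-3965, miR-3967 and miR-8090 for their sequence. Alternatives were DESeq2 1.42.0 size factors and Wald test, totals without TMM factors, no abundance filter, only the groups compared, each library left out, the 2 shallowest left out, the letters A and B as a block and, chosen after seeing the data, TMM factors from all listed miRNAs. Gene positions come from GENCODE on GRCm38. Figures were drawn with matplotlib 3.10.9.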

Additional observations from a re-analysis of the deposited data

How the results depend on the processing

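Values are log2 changes with adjusted p-values, by edgeR unless DESeq2 is named. For induced against wild type cells, miR-21a-5p passed the threshold with DESeq2 size factors (-0.50, 0.0422), without TMM factors (-0.57, 0.0299), in the DESeq2 Wald test (-0.50, 0.0374), with only the 2 groups (-0.42, 0.0463) and with a replicate block (-0.49, 0.0165). Without an abundance filter miR-21a-5p was not called for doxycycline (-0.62, 0.0909) or for induced cells against the knockout (-0.54, 0.165). With only the 2 groups compared, miR-21a-3p was not called for the knockout against wild type (1.88, 0.0536), nor was miR-21a-5p (-0.61, 0.0603) or miR-21a-3p (-1.81, 0.0996) for induced cells against the knockout, while the arm ratio was called for doxycycline (-0.79, 0.00956) and for induced cells against the knockout (-0.92, 0.0192). The DESeq2 Wald test did not call the ratio for the knockout (1.37, 0.0983) or the uninduced line (1.26, 0.132) against wild type.

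Without the 2 shallowest libraries the changes of miR-21a-3p were 0.62 (0.0639) for the knockout against wild type, 0.98 (0.0588), the opposite sign, for the uninduced line against the knockout, and -0.44 (0.256) for induced cells against the knockout, where miR-21a-5p gave -0.56 (0.0501). TMM factors from all listed miRNAs, chosen after seeing the data, gave for doxycycline -0.53 (0.0521) for miR-21a-5p and -1.32 (0.0552) for miR-21a-3p, and for miR-21a-5p -0.46 (0.0840) for induced cells against the knockout. Changes near 0 turned sign: miR-21a-3p for induced cells against wild type with only the 2 groups (0.055) and without the 2 shallowest libraries (0.18), and miR-21a-5p for the uninduced line against the knockout without TMM factors (-0.10) and for the knockout against wild type with TMM factors from all listed miRNAs (-0.028). The cause was not tested.

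With each library left out, its partner assumed to vary like the other groups, miR-21a-5p ranged from 0.04 to 0.22 for the knockout against wild type, -0.85 to -0.42 for doxycycline, -0.15 to 0.32 for the uninduced line against the knockout, -0.46 to -0.29 for induced cells and -0.018 to 0.41 for uninduced cells against wild type, and -0.60 to -0.48 for induced cells against the knockout. In the same order miR-21a-3p ranged from 0.47 to 2.42, -1.61 to -1.24, -1.01 to 0.94, -0.072 to 0.22, 1.28 to 1.65 and -2.39 to -0.46, and the ratio from 0.35 to 2.38, -0.90 to -0.67, -1.12 to 0.91, 0.31 to 0.62, 1.10 to 1.41 and -1.91 to 0.12.

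What the letters A and B mark is not stated, and the values do not settle whether they pair the libraries: deviations of libraries with the same letter correlated at 0.175 (wild type and uninduced), -0.04 (wild type and induced) and 0.29 (uninduced and induced). With the letter as a replicate block, doxycycline changed miR-21a-5p by -0.64 (0.00666) and miR-21a-3p by -1.42 (0.000126). Over all alternatives, calls for doxycycline fell to as few as 57 (137 as reported), with 7 to 89 (37) of them lower, those for the uninduced line against the knockout ran from 0 to 61 (0), those for induced cells against wild type fell to 75 (185) and against the knockout to 70 (142), with 11 to 117 (51) lower, and hairpins called for doxycycline ran from 2 to 22 (11). Some alternatives called more than reported. Without TMM factors there were 147 calls for doxycycline and 189 for induced cells against the knockout. With DESeq2 size factors there were 189 for induced cells against wild type. Lists' counts moved too. In the knockout the pluripotency-targeting list had 3 to 7 higher and 0 to 2 lower. The miR-290 cluster had 1 to 7 higher and 3 to 8 lower. The fibroblast list had 1 to 6 higher and 1 to 2 lower, and the signal list 1 to 2 higher and 0 to 2 lower. With doxycycline the signal list had 0 to 3 lower, the fibroblast list 0 to 2 lower and 1 to 2 higher, the pluripotency-targeting list 0 to 2 lower and the miR-290 cluster 0 to 9 higher. The 406 counts of miR-21a in knockout line 2 are the fewest of any library, and 2 libraries per group limit every comparison.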
